A study of Mus musculus with 6 samples.

Results

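The antiviral interferon-stimulated effector genes described here are 35 listed genes, many of whose products act against viruses or regulate that defence. They were found by gene symbol, each matched 1 row, and together they are 35 of the 55377 genes in the count tables. The libraries are from primary cultures of mouse articular chondrocytes, the cells that build and maintain joint cartilage. One group of 3 libraries (Irf1 siRNA) was transfected with a short interfering RNA against Irf1, and the other group of 3 (control siRNA) with a control siRNA. RNA was taken 36 h after transfection in both groups. The labels name neither the strain, age or sex of the animals nor whether replicates are separate cultures, so the tests below use a spread between libraries that may be technical. Both groups went through transfection, and the labels name no interferon treatment. The levels below are therefore those of transfected cells, taken as having had no interferon added. No library is from untransfected cells, so the effect of transfection itself on these levels was not tested.

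Type I interferons bind a cell surface receptor and, through the kinases JAK1 and TYK2, activate a transcription factor complex that contains IRF9. That complex binds a short DNA element, the interferon-stimulated response element (ISRE), in the promoters of a large set of genes. IRF1 recognises closely related GAAA repeats and can act at many of the same promoters without the receptor. The genes described here include effectors of this system: proteins that bind viral RNA (IFIT), make the second messenger of RNase L (OAS), trap or block virus particles at membranes (tetherin, IFITM), or attach the ubiquitin-like protein ISG15 to other proteins. Many cells keep a low, tonic level of them with no infection.

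Promoter sequences are shown first, since an ISRE-like element is present in many, though not all, of them. The RefSeq promoter table (build GRCm38.p6, 250 bases before to 50 bases after each start site) held windows for 26 of the 35 genes. It had none for Mx1, Mx2, Oas2, Usp18, Zbp1, Ifi27, Ifi27l2a, Rtp4 and Tor3a. An ISRE-like motif, GAAANNGAA on either strand with overlapping matches allowed, was present in at least 1 window of 16 of the 26 genes. Over all 27025 genes in the table the share was 9.76%. The stretches below run from 15 bases before the first to 15 bases after the last ISRE-like match, or to the end of the window, on the strand of the gene, with the matches in capitals. Samd9l and Bst2 are shown because they fell with Irf1 siRNA. The Samd9l match lies after the start site, from 39 to 47, and the Bst2 matches lie before it, from −130 to −116. Isg15, Ifit1, Ifit3, Rsad2 and Trim25 are shown because they carry the same motif and did not pass the threshold.
Samd9l (chr6:3399522-3399548, minus strand): tcagaatcgaaactgGAAACTGAAgca
Bst2 (chr8:71537573-71537617, minus strand): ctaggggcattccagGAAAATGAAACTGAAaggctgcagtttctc
Isg15 (chr4:156200861-156200911, minus strand): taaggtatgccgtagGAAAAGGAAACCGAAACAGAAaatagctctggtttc
Ifit1 (chr19:34640765-34640828, plus strand): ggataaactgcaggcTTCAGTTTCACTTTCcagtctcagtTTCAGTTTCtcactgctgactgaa
Ifit3 (chr19:34583359-34583450, plus strand): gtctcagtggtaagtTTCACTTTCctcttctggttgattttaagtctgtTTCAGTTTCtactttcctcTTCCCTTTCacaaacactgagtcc
Rsad2 (chr12:26456548-26456586, minus strand): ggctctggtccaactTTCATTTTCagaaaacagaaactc
Trim25 (chr11:88999379-88999417, plus strand): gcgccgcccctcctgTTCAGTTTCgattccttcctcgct

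Isg15 had 3 overlapping matches in a row, and Ifit1, Ifit3 and Ifit3b had 3 matches each. These were the most in any window, and none of these genes passed the threshold. Overlapping matches were counted separately, and the part of the motif in the falls was not tested. The other genes that fell, Cmpk2, Herc6 and Xaf1, had no match in their windows, nor did Oasl1, which rose. In all, a match was present in 2 of the 5 genes that fell and in 10 of the 13 genes with a window that were tested and not called. A missing match says only that these letters are not in this window.

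The knockdown and the identity of the cells were checked before the effector genes were compared. Irf1 had 125, 140 and 141 counts in the Irf1 siRNA libraries, against 312, 355 and 362 in the control siRNA libraries, and every library lay on the side its label gives (log2 fold change −1.10, SE 0.11, adjusted p = 2.995e-06 in edgeR). The knockdown was partial, with 46.6% of the control level left. Total counts were 22349142 to 26752065 with Irf1 siRNA and 28565096 to 29282494 with control siRNA, so every knockdown library was the shallower, and the part of depth in the results below was not tested. The chondrocyte markers were high in both groups, led by Col2a1 at 71709 CPM (TMM-normalised counts scaled to a fixed library total) with Irf1 siRNA and 72194 CPM with control siRNA. Of the 12 listed, Hapln1 fell to 915 CPM with Irf1 siRNA, against 1877 CPM with control siRNA (log2 fold change −1.04, adjusted p = 1.60e-08 in edgeR). Prg4 rose to 58.1 CPM, against 42.2 CPM (log2 fold change 0.46, adjusted p = 0.00112). The others on that list did not pass the threshold. Of 25 markers of macrophages, plasmacytoid dendritic cells, T and NK cells and endothelium, 9 had no count in any library, among them Adgre1, Fcgr1, C1qb, Siglech, Cd3e and Nkg7. The summed macrophage list ran from 3.43 to 3.995 CPM with Irf1 siRNA and from 3.03 to 5.20 CPM with control siRNA, most of it Mrc1. The 3 of the 25 markers that could be tested did not pass the threshold: Mrc1 (log2 fold change −0.07, adjusted p = 0.837), Tcf4 (0.11, 0.201) and the endothelial marker Pecam1 (−0.61, 0.205). Pecam1 had 35 counts in all with Irf1 siRNA, against 63 with control siRNA, and was lower in every knockdown library, as was Csf1r with 21 counts, against 33. Ptprc, of blood cells, had 9 counts, against 20, with an overlap of the groups. Fibroblast markers were more abundant: each of the 5 listed had counts. Their sum ran from 89.3 to 96.0 CPM with Irf1 siRNA and from 84.8 to 97.0 CPM with control siRNA. The 3 of these 5 that could be tested did not pass the threshold. The part of such cells in the results below was not tested.

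The tonic expression of the effector genes, here that of transfected cells, covered a wide range of levels. In the control siRNA libraries 3 of the 35 genes averaged at least 30 CPM, 5 lay from 10 to 30, 11 from 1 to 10, 11 from 0.1 to 1 and 5 under 0.1 CPM. All 35 genes together took 0.0253% to 0.0278% of the counts with Irf1 siRNA and 0.0270% to 0.0275% with control siRNA. Per length of transcript, in control siRNA libraries, Ifi27 was highest at 42.2 ± 1.51 RPKM (CPM per kilobase of exon; SD, n = 3), above 93.3% of tested genes. Ifitm3 followed at 29.01 ± 2.51 and Ifitm2 at 24.9 ± 5.63, which do not differ beyond their spread. Tor3a had 10.8 ± 0.727, Ifit3 7.22 ± 0.713, Bst2 6.32 ± 0.654, Trim25 5.88 ± 0.194 and Ifit2 5.51 ± 0.452 RPKM, and the last 3 of these overlap within their SDs. Isg15, one of the most strongly induced genes of an interferon response, stood at 2.36 ± 0.226 RPKM, above 37.2% of tested genes. Samd9l had 0.8997 ± 0.0829, Cmpk2 0.183 ± 0.0560 and Rsad2 0.161 ± 0.0748 RPKM.

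**Figure D1:**
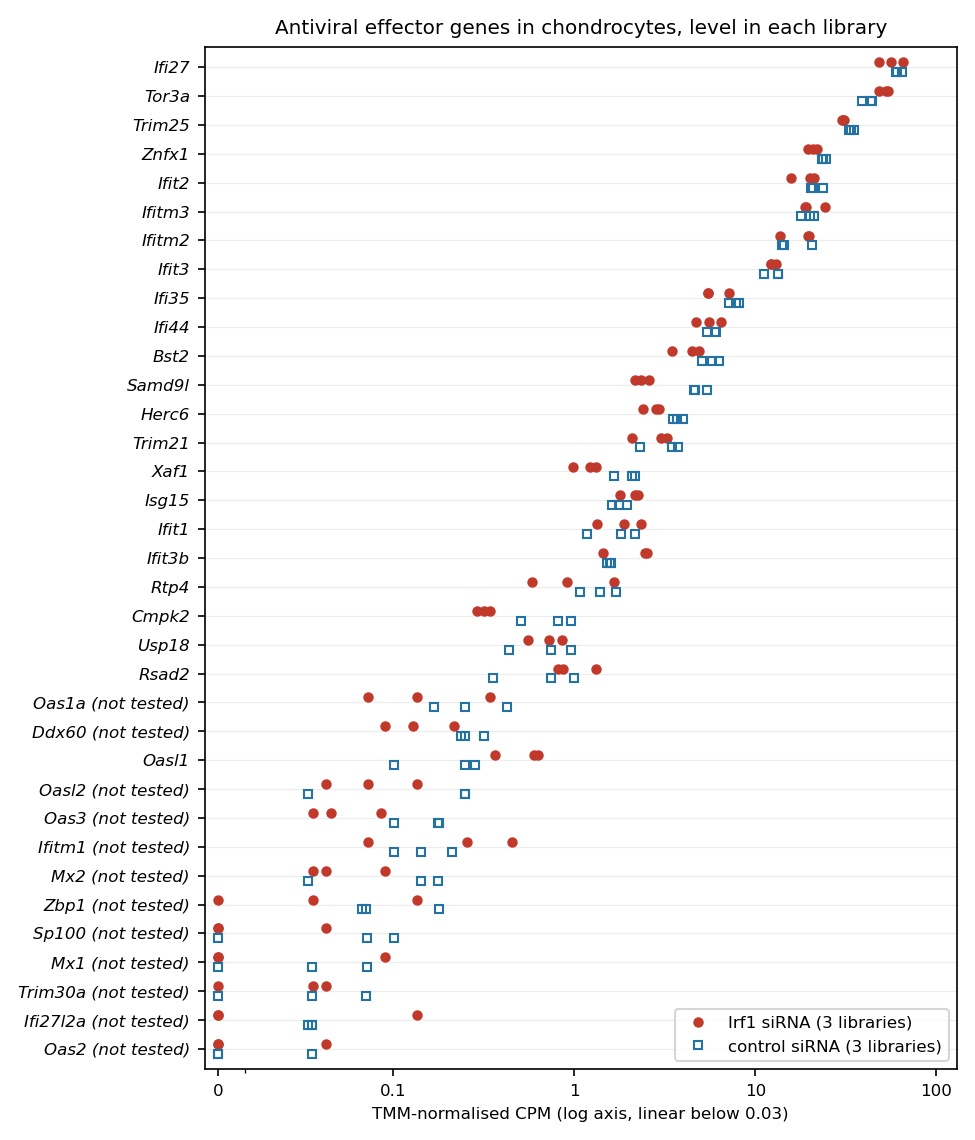
Level of each of the 35 antiviral effector genes, in TMM-normalised CPM on a log axis that is linear below 0.03, with 1 point per library (filled circles for Irf1 siRNA, open squares for control siRNA), genes ordered by their mean with control siRNA. Ifi27, Tor3a and Trim25 lead, and the 12 genes marked as not tested lie in the lower part, with the tested gene Oasl1 among them.

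The counts of 12 genes were too low to test: Mx1, Mx2, Oas1a, Oas2, Oas3, Oasl2, Ifitm1, Zbp1, Ddx60, Trim30a, Sp100 and Ifi27l2a. The filter asks for about 10 counts in a library of median size, which is 0.362 CPM, in at least 3 libraries. These genes had 1 to 18 counts summed over the 3 Irf1 siRNA libraries and 1 to 24 summed over the 3 control siRNA libraries. A limit of 3 counts corresponds to 0.109 to 0.135 CPM per library with Irf1 siRNA and 0.101 to 0.107 CPM with control siRNA, and it covers counting error only. At this depth these genes did not pass the filter, which does not show that there was no change. A large enough rise would have been tested. Oasl1, with 7, 8 and 3 counts with control siRNA, passed through its 14, 10 and 14 counts with Irf1 siRNA. Oas3, a long oligoadenylate synthetase, had 1, 1 and 2 counts with Irf1 siRNA, against 5, 5 and 3 with control siRNA, and Ddx60, a helicase that assists RNA sensing, had 2, 6 and 3 counts, against 7, 9 and 7. The groups do not overlap in CPM for either gene, but with no filter on low counts edgeR gave adjusted p-values of 0.423 for Oas3 and 0.497 for Ddx60.

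Of the 23 genes that could be tested, 5 fell with Irf1 siRNA (Samd9l, Xaf1, Cmpk2, Herc6 and Bst2), 2 rose (Tor3a and Oasl1) and 16 did not pass the threshold, an adjusted p under 0.05 in edgeR's quasi-likelihood test over all tested genes. The shares were 21.7% lower and 8.70% higher, together 30.4%, against 12.0% lower and 10.4% higher, together 22.4%, among all 14683 tested genes. At an unadjusted p under 0.05 there were 10 of the 23, against 34.3% of all tested genes. With 23 genes, 5 and 2 calls are small numbers beside that background. The median log2 fold change of the 23 was −0.13, against 0.00108 over all tested genes, and without Irf1 siRNA replicate 2 it was −0.023. In 8 of the 23 genes every Irf1 siRNA library lay below every control siRNA library, and in 2 every one lay above; over all tested genes the shares are 19.5% and 18.6%. Cmpk2 and Oasl1 passed the filter only through the group in which each is high. Among the other 21 genes, 4 fell and 1 rose. In bulk RNA a change in the number of cells that express a gene and a change in RNA per cell cannot be told apart.

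The number of calls depended on single libraries. It was 5 lower and 2 higher without Irf1 siRNA replicate 1, although only 3 of those 5 and 1 of those 2 were the genes named above. It was 1 and 2 without Irf1 siRNA replicate 2, 2 and 1 without Irf1 siRNA replicate 3, 2 and 1 without control siRNA replicate 1, 1 and 1 without control siRNA replicate 2, and 3 and 1 without control siRNA replicate 3. Samd9l and Tor3a were called in all 13 alternatives tried.

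**Figure D2:**
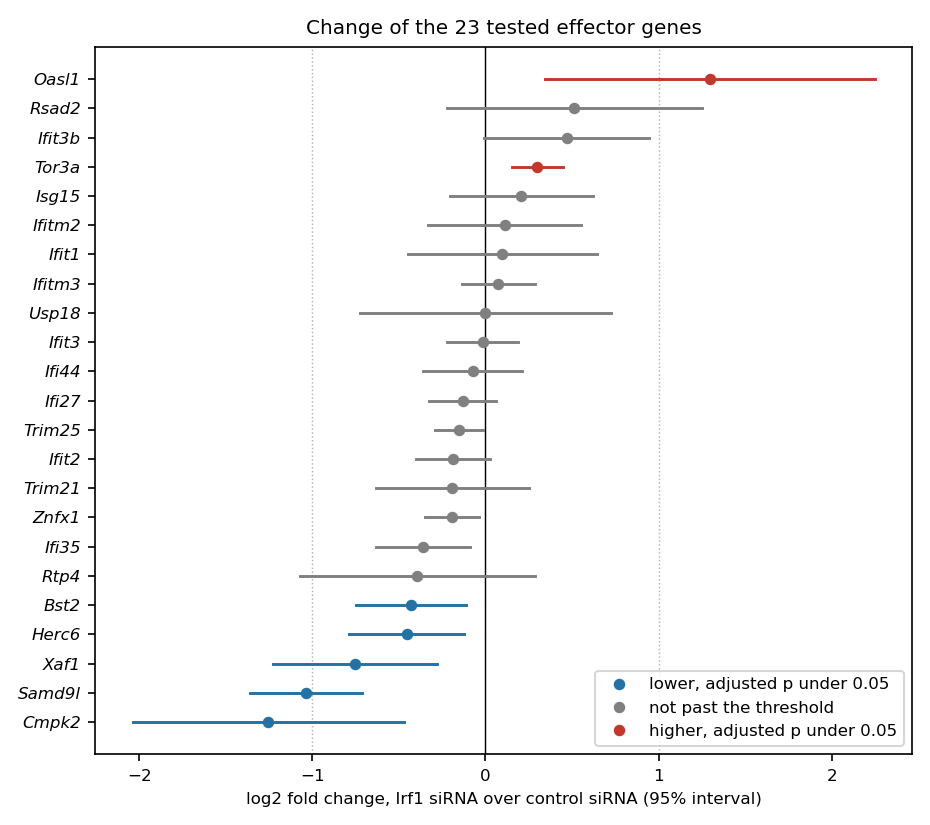
Log2 fold change, Irf1 siRNA over control siRNA, of the 23 tested effector genes with 95% intervals from edgeR (blue lower, red higher, grey not past the threshold; dotted lines mark a 2-fold change). Samd9l and Cmpk2 lie farthest to the left, Oasl1 farthest to the right with the widest interval, and Isg15, Ifit1, Ifit3 and Usp18 lie across 0.

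Samd9l was the fall with the smallest adjusted p. Its product, SAMD9L, is a cytoplasmic restriction factor of poxviruses that blocks protein synthesis. Samd9l had 2.35, 2.58 and 2.18 CPM in the Irf1 siRNA libraries, against 4.601, 4.65 and 5.402 CPM in the control siRNA libraries. The groups lay far apart relative to their spread (2.37 ± 0.201 against 4.88 ± 0.450 CPM; SD, n = 3 each). The level was 2.05-fold lower (log2 fold change −1.04, SE 0.15, adjusted p = 1.58e-04 in edgeR). For comparison, Irf1 itself was 2.15-fold lower. Leaving out any 1 library kept the log2 fold change of Samd9l between −1.11 and −0.96.

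Xaf1, whose product binds the caspase inhibitor XIAP and favours cell death, was next in stability. It had 1.22, 0.981 and 1.32 CPM with Irf1 siRNA, against 2.18, 2.09 and 1.65 CPM with control siRNA. Every knockdown library was below every control library, and the log2 fold change was −0.75 (SE 0.22, adjusted p = 0.0236). Xaf1 no longer passed when Irf1 siRNA replicate 2 (adjusted p = 0.0886), control siRNA replicate 1 (0.0762) or control siRNA replicate 2 (0.0729) was left out, or with DESeq2 (0.0554).

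Cmpk2 and Rsad2 are neighbours on chromosome 12 with no protein-coding gene between them in RefSeq. Rsad2 encodes viperin, which turns CTP into a chain terminator of viral RNA synthesis, and Cmpk2 encodes a mitochondrial nucleotide kinase. Cmpk2 had 0.316, 0.291 and 0.342 CPM with Irf1 siRNA, against 0.963, 0.816 and 0.506 CPM with control siRNA, and the groups do not overlap (log2 fold change −1.26, SE 0.37, adjusted p = 0.0228). These levels rest on 7 to 8 counts per knockdown library and 15 to 27 per control library. Cmpk2 no longer passed with DESeq2 (0.0666) or without Irf1 siRNA replicate 1 (adjusted p = 0.0565), replicate 2 (0.0683) or replicate 3 (0.0610), or control siRNA replicate 1 (0.0995) or replicate 2 (0.0724). Rsad2 had 0.813, 0.872 and 1.32 CPM with Irf1 siRNA, against 0.999, 0.355 and 0.743 CPM with control siRNA. The groups of Rsad2 overlap (log2 fold change 0.51, 95% interval −0.22 to 1.25, adjusted p = 0.317). The 2 genes therefore stood on opposite sides of 0, with a fall called for Cmpk2, no call for Rsad2 and no test of the difference between them.

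**Figure D3:**
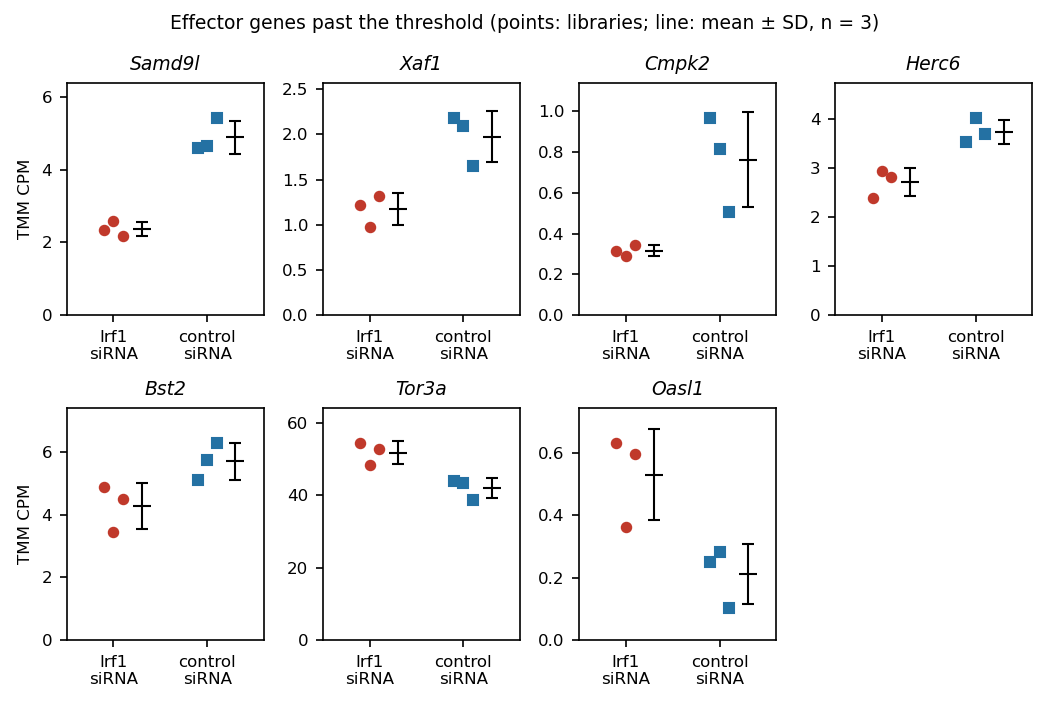
TMM-normalised CPM of the 7 effector genes past the threshold, with 1 point per library (red circles Irf1 siRNA, blue squares control siRNA) and the mean with its SD beside the points, n = 3 per group, each axis starting at 0. The groups do not overlap in any of the 7, and Samd9l and Tor3a are the pair called under every alternative.

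ISG15 and its enzymes were split. ISG15 is attached to target proteins by an activating enzyme, a conjugating enzyme and a ligase, and removed by USP18. Isg15 itself had 2.17, 1.78 and 2.26 CPM with Irf1 siRNA, against 1.96, 1.77 and 1.62 CPM with control siRNA, and the groups overlap (log2 fold change 0.21, 95% interval −0.21 to 0.62, adjusted p = 0.488). Herc6, the main ISG15 ligase of mice, had 2.39, 2.94 and 2.82 CPM with Irf1 siRNA, against 3.53, 4.01 and 3.68 CPM with control siRNA. All 3 knockdown libraries were below the controls (log2 fold change −0.45, SE 0.16, adjusted p = 0.0481). In GENCODE M21, 13.7% of the exonic bases of Herc6 are overlapped by Gm45193 on the same strand. Of its 50-base windows, 12.5% occur in transcripts of other genes, and how such reads were counted is not known here. The call of Herc6 stood just inside the threshold. It was lost without any single library (adjusted p of 0.0560 without Irf1 siRNA replicate 2 to 0.144 without control siRNA replicate 2) and with DESeq2 (0.109), limma-voom (0.0528), upper-quartile scaling (0.0599) and no filter (0.0575).

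Trim25, a ubiquitin ligase of the RIG-I pathway that can also act on ISG15 targets, had 30.3, 30.1 and 31.0 CPM with Irf1 siRNA, against 32.8, 33.8 and 35 CPM with control siRNA. The groups do not overlap, yet the log2 fold change of −0.15 had an adjusted p of 0.109, and its 95% interval keeps any change under 1.5-fold. Usp18 averaged 0.713 ± 0.152 CPM with Irf1 siRNA and 0.716 ± 0.263 CPM with control siRNA (SD, n = 3 each; adjusted p = 0.999), with an interval of −0.73 to 0.72 on the log2 scale.

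The enzymes upstream of Herc6 were named after their values were seen, from the list of other interferon-stimulated genes described below. Uba7, the activating enzyme of ISG15, had 0.271, 0.508 and 0.256 CPM with Irf1 siRNA, against 0.785, 0.957 and 0.709 CPM with control siRNA (log2 fold change −1.19, SE 0.35, adjusted p = 0.0237). These levels rest on 6, 14 and 6 counts with Irf1 siRNA, against 22, 27 and 21 with control siRNA. Like Cmpk2, Uba7 passed the filter only through the control siRNA group. Ube2l6, the conjugating enzyme, had 2.57, 2.32 and 1.96 CPM with Irf1 siRNA, against 3.07, 3.37 and 4.42 CPM with control siRNA (log2 fold change −0.66, SE 0.19, adjusted p = 0.0173). Each of the enzymes of this chain was lower in every knockdown library, while Isg15 and Usp18 overlapped between groups. Uba7 and Ube2l6 were picked with their values known, and 19.5% of all tested genes were lower in every knockdown library. Whether the enzymes fell together as a set was not tested. The call of Uba7 was lost without Irf1 siRNA replicate 1 (0.0813) or replicate 3 (0.102), without control siRNA replicate 1 (0.0508) or replicate 2 (0.0943), and with DESeq2 (0.0662). That of Ube2l6 was lost without Irf1 siRNA replicate 3 (0.0809) or control siRNA replicate 3 (0.0897).

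**Figure D4:**
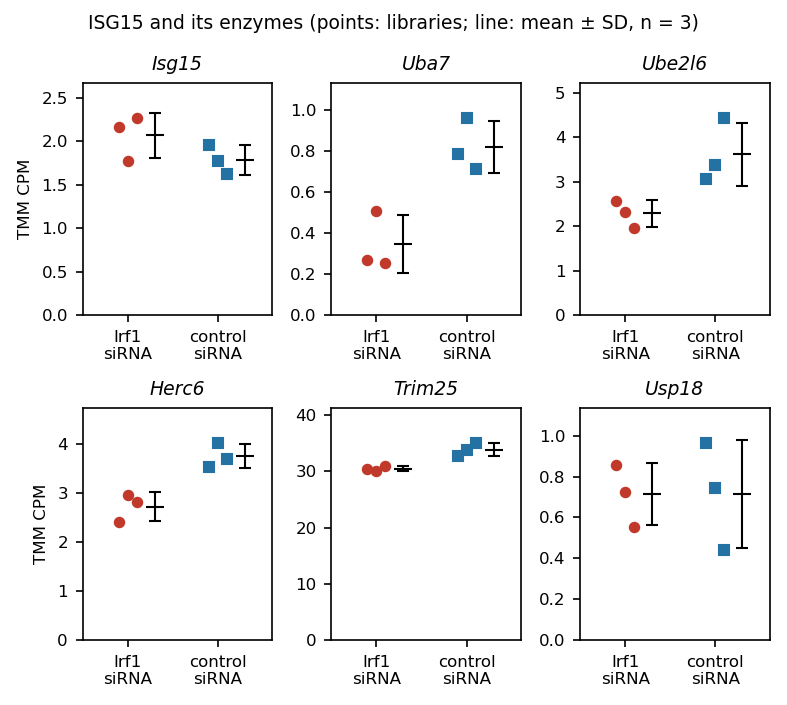
TMM-normalised CPM of Isg15, its activating enzyme Uba7, conjugating enzyme Ube2l6, ligase Herc6, the ligase Trim25 and the protease Usp18, with 1 point per library (red circles Irf1 siRNA, blue squares control siRNA), the mean and its SD (n = 3 per group), and axes that start at 0. Uba7, Ube2l6, Herc6 and Trim25 are lower in all 3 knockdown libraries, and Isg15 and Usp18 overlap.

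Factors that act at membranes gave 1 fall among the 3 tested. Bst2 encodes tetherin, which holds budding enveloped virus particles at the cell surface. It had 4.88, 3.45 and 4.48 CPM with Irf1 siRNA, against 5.10, 5.74 and 6.28 CPM with control siRNA, so the groups are separate by a narrow gap (log2 fold change −0.43, SE 0.15, adjusted p = 0.0491). Bst2 no longer passed without Irf1 siRNA replicate 2 (adjusted p = 0.206) or replicate 3 (0.0888), control siRNA replicate 2 (0.114) or replicate 3 (0.149). Nor did it pass with DESeq2 (0.0786), upper-quartile scaling (0.0613) or a filter at a mean of 1 CPM (0.0516), and limma-voom put it just outside the threshold.

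Ifitm2 and Ifitm3 encode small membrane proteins that stop virus fusion with endosomes. Ifitm3 had 24.2, 19.1 and 18.9 CPM with Irf1 siRNA, against 21.2, 17.8 and 19.99 CPM with control siRNA. Ifitm2 had 19.9, 13.7 and 19.6 CPM with Irf1 siRNA, against 20.6, 14.0 and 14.5 CPM with control siRNA. Both pairs of groups overlap, with log2 fold changes of 0.07 (adjusted p = 0.645) and 0.11 (adjusted p = 0.731). Their 95% intervals lie within a 1.5-fold change in either direction. In GENCODE M21, 48.5% of the 50-base windows of the Ifitm2 transcript also occur in transcripts of other genes, mostly Gm45717, so reads of Ifitm2 may be counted elsewhere or not at all. Ifitm1 was too low to test, with 10, 2 and 6 counts with Irf1 siRNA, against 4, 6 and 3 with control siRNA.

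None of the 4 IFIT genes, of whose products IFIT1 binds viral RNA that lacks a host cap, passed the threshold in edgeR. Ifit2 had 15.8, 21.0 and 19.9 CPM with Irf1 siRNA, against 20.4, 20.9 and 23.7 CPM with control siRNA (log2 fold change −0.19, adjusted p = 0.198). Ifit3 had 12.2, 12.2 and 13.0 CPM with Irf1 siRNA, against 11.2, 13.4 and 13.3 CPM with control siRNA (log2 fold change −0.02, 95% interval −0.22 to 0.19, adjusted p = 0.921). The groups overlap for both genes, and both intervals lie within a 1.5-fold change. Ifit1 averaged 1.86 ± 0.502 CPM with Irf1 siRNA and 1.72 ± 0.498 CPM with control siRNA (SD, n = 3 each; log2 fold change 0.10, adjusted p = 0.829).

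Ifit3b, a copy of Ifit3 found in mice, had 1.44, 2.47 and 2.52 CPM with Irf1 siRNA, against 1.57, 1.52 and 1.59 CPM with control siRNA. Replicates 2 and 3 of Irf1 siRNA lay above all controls and replicate 1 lay below them (log2 fold change 0.47, 95% interval −0.01 to 0.95, adjusted p = 0.153), and without Irf1 siRNA replicate 1 the rise passed the threshold (adjusted p = 0.0328). The promoter stretch printed for Ifit3 is present in Ifit3b with all 92 bases identical. The transcripts are alike too: 51.2% of the 50-base windows of Ifit3 occur in Ifit3b, and 44.5% of those of Ifit3b occur in Ifit3. How reads that match both were counted is not known here, and the values of both genes are uncertain to that extent.

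The Mx and OAS families were barely detected. Mx1 and Mx2, GTPases that trap viral nucleoproteins, had 2 and 4 counts in all over the 3 Irf1 siRNA libraries, against 3 and 10 over the 3 control siRNA libraries. Of the OAS family, which makes the oligoadenylates that switch on RNase L, Oas1a, Oas2, Oas3 and Oasl2 were too low to test. Of the 50-base windows of the Oas1a transcript, 57.6% occur in Oas1g.

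Oasl1, an OAS-like protein that in mice represses translation of the Irf7 message, was the only one of the 5 OAS genes among the 35 that could be tested, and it rose. Oasl1 had 14, 10 and 14 counts with Irf1 siRNA, against 7, 8 and 3 with control siRNA. These are 0.632, 0.363 and 0.598 CPM, against 0.250, 0.284 and 0.101 CPM, and the groups do not overlap (log2 fold change 1.30, SE 0.45, adjusted p = 0.0491). Oasl1 no longer passed without Irf1 siRNA replicate 1 (adjusted p = 0.145) or replicate 3 (0.153), or control siRNA replicate 1 (0.0838), replicate 2 (0.0662) or replicate 3 (0.180), and with no filter (0.0610). Other OAS genes, from the list of other interferon-stimulated genes described below and named after their values were seen, did not pass. Oas1c had 0.316, 0.472 and 0.256 CPM with Irf1 siRNA, against 0.571, 0.957 and 0.574 CPM with control siRNA, lower in every knockdown library (log2 fold change −0.97, SE 0.38, adjusted p = 0.0775). The groups of Oas1b overlapped (log2 fold change −0.23, SE 0.40, adjusted p = 0.735). Irf7 itself averaged 1.43 CPM with Irf1 siRNA and 1.38 CPM with control siRNA (log2 fold change 0.05, adjusted p = 0.902).

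Tor3a, an interferon-induced ATPase of the torsin family in the endoplasmic reticulum, was abundant in both groups and rose. It had 54.4, 48.2 and 52.7 CPM with Irf1 siRNA, against 44.0, 43.3 and 38.8 CPM with control siRNA. Every knockdown library was above every control library, by a small factor of 1.23 (log2 fold change 0.30, SE 0.07, adjusted p = 0.00568). The rise was called without any 1 library (log2 fold change 0.24 to 0.35).

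The other abundant effectors moved little. Ifi27, which encodes a small mitochondrial membrane protein, had 65.7, 47.9 and 56.2 CPM with Irf1 siRNA, against 61.0, 64.4 and 60.2 CPM with control siRNA. The knockdown libraries spread on both sides of the controls (log2 fold change −0.13, adjusted p = 0.333), and without Irf1 siRNA replicate 1 a fall was called (log2 fold change −0.25, adjusted p = 0.0264). Znfx1, a helicase that detects double-stranded RNA at mitochondria, had 19.6, 20.9 and 22.0 CPM with Irf1 siRNA, against 23.8, 23.4 and 24.4 CPM with control siRNA. Its groups do not overlap, and the log2 fold change of −0.19 (adjusted p = 0.0718) did not pass the threshold.

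Ifi35, a binding partner of NMI, also lay just outside the threshold. It averaged 6.03 ± 0.957 CPM with Irf1 siRNA and 7.71 ± 0.512 CPM with control siRNA (SD, n = 3 each; log2 fold change −0.36, adjusted p = 0.0538), and it was called lower without Irf1 siRNA replicate 1 (0.0141), with no filter (0.0310) and with limma-voom (0.0494). Its groups come close to touching without an overlap. In GENCODE M21, 16.8% of its exonic bases are overlapped by Gm11626 on the opposite strand, and whether the counting used the strand is not known here. Rtp4, a receptor transporter with antiviral activity, had 0.587, 0.908 and 1.67 CPM with Irf1 siRNA, against 1.07, 1.70 and 1.38 CPM with control siRNA, with a wide interval (log2 fold change −0.39, 95% interval −1.07 to 0.28, adjusted p = 0.415). Ifi44 gave −0.07 (adjusted p = 0.739) and Trim21, a cytosolic antibody receptor, gave −0.19 (adjusted p = 0.553) on the log2 scale.

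The precision of each test bounds what these comparisons can say. The 95% interval lay within a 1.5-fold change in either direction for 9 of the 23 tested genes, and within a 2-fold change for 17. For the remaining 6 (Samd9l, Xaf1, Cmpk2, Oasl1, Rsad2 and Rtp4) a 2-fold change in 1 direction lay inside the interval, and for none did a 2-fold change in both. Replicates of these genes were noisier than average, with a median biological coefficient of variation of 9.69%, against 6.75% over all tested genes. The comparison was not matched for expression level, and the part of level in it was not tested. The called genes other than Tor3a averaged under 6 CPM in both groups.

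**Figure D5:**
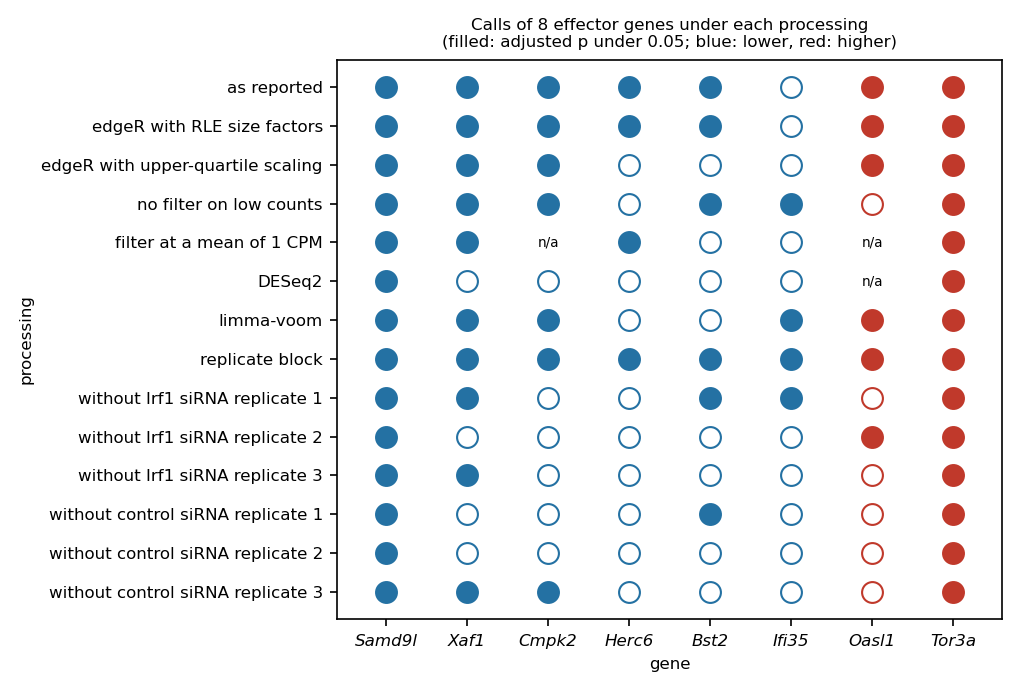
Calls of 8 effector genes (the 7 past the threshold and Ifi35) under each way of processing the counts, 1 row per processing (filled circle, adjusted p under 0.05; open circle, not; n/a, no adjusted p obtained; blue lower, red higher with Irf1 siRNA). The columns of Samd9l and Tor3a are filled throughout, and Herc6 is open whenever a library is left out.

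The pathway that drives these genes was examined from a list of 37 genes. Of its 10 interferon ligand genes, 8 had no count in any of the 6 libraries, Ifnb1 and Ifng among them, and Ifnk and Ifne had 1 count each. Of the 27 pathway genes tested, 2 fell and 2 rose, 7.41% in each direction, against 12.0% lower and 10.4% higher among all tested genes. One of the 2 that fell is Irf1, the target of the siRNA, so the share lower includes a fall set by the design. The other was Stat3, at 128.1 CPM with Irf1 siRNA, against 198.5 CPM with control siRNA (log2 fold change −0.63, SE 0.06, adjusted p = 1.19e-06). Il10rb, a receptor chain that interferon lambda shares with interleukin 10, rose to 7.59 CPM with Irf1 siRNA, against 4.67 CPM with control siRNA (log2 fold change 0.70, SE 0.12, adjusted p = 8.11e-04). The call of Jak2 (log2 fold change 0.18) was lost without Irf1 siRNA replicate 2 (0.0698) or 3 (0.152) or control siRNA replicate 1 (0.0752) or 2 (0.166), which leave 1 gene higher. The receptor genes and the signalling genes Stat2 and Irf9 were expressed in both groups. Stat2 averaged 17.1 CPM with Irf1 siRNA and 16.1 CPM with control siRNA (log2 fold change 0.09, adjusted p = 0.511), and Irf9 gave −0.15 (0.321). Ifnar1 gave 0.17 (adjusted p = 0.0530) and Ifnar2 0.03 (0.832). Ifnlr1, the other chain of the interferon lambda receptor, had 0.677, 0.363 and 0.641 CPM with Irf1 siRNA, against 0.999, 1.24 and 0.810 CPM with control siRNA, lower in every knockdown library (log2 fold change −0.88, SE 0.32, adjusted p = 0.0587).

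Another list held 85 other interferon-stimulated genes, of which 83 symbols were found and 59 were tested. Of these 13 fell and 5 rose, shares of 22.0% and 8.47%. The effector genes gave 21.7% and 8.70%, and the background was 12.0% and 10.4%. The clearest falls were Ifi204 (log2 fold change −0.60, SE 0.09, adjusted p = 2.40e-04), a DNA-binding member of the p200 family, Helz2 (−0.49, SE 0.08, adjusted p = 4.09e-04), a helicase that acts as a nuclear receptor coactivator, and Parp9 (−0.58, SE 0.11, adjusted p = 0.00138). The number of rises went down to 2 without Irf1 siRNA replicate 3 and to 3 without Irf1 siRNA replicate 1 or control siRNA replicate 1 or 2.

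Short words in untranslated regions were also counted in the effector genes. Across all genes of these libraries, falls went with 4 words of 7 bases in the 3′ UTR, namely ACTGATC with its overlapping neighbour CTGATCA, and GCTATCT with its overlapping neighbour CTATCTA, and the words were chosen for that reason, so their presence is a description. In the longest GENCODE M21 3′ UTR of each gene, at least 1 word was present in 42.3% of genes that fell, 13.8% of genes that rose and 18.7% of genes not past the threshold. Over all tested genes with a 3′ UTR of at least 50 bases it was 21.3%. Among the 23 tested effector genes it was 4 (17.4%): Cmpk2, Rsad2, Trim25 and Trim21. Of the 5 that fell, Cmpk2 alone held one in the 3′ UTR, and Samd9l held the GCTATCT pair in its coding sequence. In coding sequence, Ifit2, which was not called, held the same pair, Rsad2 and Ifi35 held GCTATCT, and Oasl1, which rose, held CTGATCA. The shares above are for the 3′ UTR only, and none is given for coding sequence. The part of these words in the falls of Cmpk2 and Samd9l was not tested. The site in Cmpk2 and the one in Rsad2, which did not fall, are shown with 1 word in capitals; each also spells another of the words 1 base further on.
Cmpk2: tttggcccacACTGATCaattgtgatg
Rsad2: acatcttctgGCTATCTacggactgtt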

How the data were processed

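The authors deposited raw read counts per gene, 1 table for each of 6 libraries, with symbol and Ensembl identifier. Libraries were made with a stranded kit for polyadenylated RNA, per the labels' protocols. Per the submitters' processing notes, the tools were FastQC, Trimmomatic 0.39 and STAR and the build was GRCm39 (mm39). Neither those notes nor the labels name the counting tool, the annotation or the strand setting.

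The main test was that of edgeR 4.0.16 under R 4.3.3 (filterByExpr, TMM scaling, quasi-likelihood F test with the robust option, two-sided). Benjamini-Hochberg adjustment ran over all 14683 tested genes, which held at least 99.9% of each library's counts. Standard errors are the absolute log2 fold change over the square root of F, with 95% intervals from the t distribution. An exact permutation test of 3 against 3 cannot go below p = 0.1. DESeq2 1.42.0, limma 3.58.1 (voom), other scalings and filters, a replicate block and leaving out each library were alternatives.

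Lengths, transcript windows and 3′ UTRs came from GENCODE M21 (GRCm38, another build than the authors'), by gene identifier, and promoters from RefSeq by symbol. A length was found for 99.8% of tested genes. The genes and lists were chosen with earlier results of these data known. Genes named with every library's value are those called, those averaging 10 CPM or more and the 3 largest changes not called; Isg15 was added after its values were seen. From the context lists, up to 5 called genes with the smallest adjusted p and the direct regulators of the pathway are named. One gene of the pathway list is not reported here.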

Additional observations from a re-analysis of the deposited data

How the results depend on the processing

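Samd9l, Tor3a and Irf1 kept their direction and call in all 13 alternatives, Irf1 with log2 fold changes of −1.17 to −1.04 when a library was left out. The count of effector genes lower was 3 with upper-quartile scaling, 3 with a filter at a mean of 1 CPM and 1 with DESeq2, and ranged from 1 to 5 when a library was left out. The count higher was 1 with no filter, with the 1 CPM filter and with DESeq2, and ranged from 1 to 2. The cause was not tested, except that the 1 CPM filter removes Cmpk2 and Oasl1; DESeq2 gave Oasl1 no adjusted p. The median log2 fold change of the effector genes ranged from −0.14 to −0.023 when a library was left out, the last value without Irf1 siRNA replicate 2, and was −0.15 with no filter and with the 1 CPM filter. The deviations of same-numbered libraries from their group means correlated at 0.258, −0.0729 and 0.0641 over 14683 genes, and Irf1 siRNA replicate 2 correlated best with control siRNA replicate 3 (0.275), so the numbers were not taken as pairs. With a replicate block 6 effector genes were lower (Ifi35 added, adjusted p = 0.0295) and 2 higher, among 1984 lower and 1744 higher genes in all; the block changed no other call of the effector genes. Counts over all genes ranged from 959 to 1398 higher and 1276 to 1716 lower when a library was left out. The alternatives for the context lists were chosen after seeing the data: pathway genes higher were 1 with no filter, 3 with upper-quartile scaling, 3 with the 1 CPM filter and 1 to 2 with a library left out; other interferon-stimulated genes higher were 3 with DESeq2 and 2 to 6 with a library left out.

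Log2 fold changes near 0 changed sign for genes that were not called. Usp18 was at 0.0018 with RLE factors, 0.025 with upper-quartile scaling, 0.056 with limma-voom, 0.0086 with the block and −0.26 to 0.27 with a library left out. Ifit3 was at 0.0085 with upper-quartile scaling and −0.098 to 0.025 with a library left out. With a library left out, Ifit1 ran from −0.12 to 0.30, Ifitm3 from −0.048 to 0.13, Ifi44 from −0.19 to 0.041, Ifnar2 from −0.041 to 0.077 and Irf7 from −0.048 to 0.25. The 12 untested genes, and the calls of Cmpk2, Oasl1 and Uba7, rest on under 30 counts per library.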

Other observations

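The change with the smallest adjusted p among the other interferon-stimulated genes was a rise. Mov10, an RNA helicase that restricts retroelements and some RNA viruses, had 39.0, 39.7 and 42.1 CPM in the Irf1 siRNA libraries, against 19.6, 19.4 and 19.5 CPM in the control siRNA libraries. The groups were far apart relative to their spread (log2 fold change 1.05, SE 0.07, adjusted p = 3.75e-08 in edgeR), and the rise was called in all 13 alternatives. Ifi30, a lysosomal thiol reductase of antigen processing, was also higher in every knockdown library, at 94.98, 87.8 and 93.8 CPM with Irf1 siRNA, against 70.5, 69.3 and 70.5 CPM with control siRNA (log2 fold change 0.39, SE 0.06, adjusted p = 1.14e-04), and was called in all 13 alternatives.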
